A study of Mus musculus with 14 samples.

Results

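The 35 genes described here encode proteins of the lysosome and transcription factors that control its genes. They comprise 4 membrane proteins, 17 hydrolases and hydrolase cofactors, 11 subunits of the vacuolar proton pump (V-ATPase) and 3 transcription factors. Grn, which encodes progranulin, is neither a hydrolase nor a cofactor but is counted with the 17. The genes were taken by name, as 35 of the 43432 genes in the table, and all 35 were read and tested. Expression was measured by RNA-seq in lung cells of male 129S1 mice of 10 to 12 weeks, which had received water or bleomycin (3 U/k, as labelled), a DNA-damaging drug that injures the lung and leads to fibrosis, into the trachea. All libraries came from cells that carried both SiglecF and CD11c on their surface, a gate that holds alveolar macrophages. The cells were divided into those with much and those with little MHC class II (MHCII), the surface complex that presents peptides to T cells. Both kinds were taken 2 and 4 weeks after bleomycin, and each of the 4 groups has 3 libraries. The controls were MHCII-low cells of water-treated mice, with 2 libraries, labelled as replicates 1 and 3. Their titles carry no time, unlike those of the bleomycin libraries, and both times were compared with them. There is no MHCII-high control group in this report, and bleomycin was compared with water in MHCII-low cells only. The labels do not say that replicates came from separate animals, so the p-values measure the spread between these libraries, which may be technical.

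The lysosome is the acidic compartment in which cells break down what they engulf and their own worn-out parts. The V-ATPase acidifies it: the V1 sector splits ATP in the cytosol and the V0 sector carries protons through the membrane. Hydrolases then cut lipids, sugars and proteins at low pH, and membrane proteins line and gate the compartment. Alveolar macrophages, which clear surfactant and debris from the airspace, depend on this machinery. The transcription factors TFEB, TFE3 and MITF bind a short promoter sequence, the CLEAR element built around the E-box CACGTG, and can switch on many lysosomal genes together; their activity is known to be set largely by phosphorylation and location in the cell, which RNA levels do not show.

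Because that element is the known link between these genes, their promoters were searched for its E-box with 1 flanking base, TCACGTG on either strand. RefSeq promoter windows (build GRCm38.p6) of 300 bases, 250 before and 50 from the annotated start on, were matched for 29 of the 35 genes. The windows of 9 of the 29 (31%) held the motif, against 4.29% of the 27025 genes with a window. As the element is already known from lysosomal genes, which the members were chosen to be, this contrast is not independent support. Of 85 other genes of the lysosomal pathway with a window, 20 (23.5%) held it. The shorter CACGTG, which lies within it, was found in 31% of the members' windows, against 8.09% for all genes. The windows follow RefSeq's start, which can differ from other annotated starts of a gene, and a match is a description of the letters, not a measured binding site. The windows of 5 genes are printed 5′ to 3′ on the gene's own strand, with each copy of the motif in capitals. Lamp1 (chr8:13158911-13159210, forward strand) is shown because its window held the most copies among the members, Gla (chrX:134600956-134601255, reverse strand) because both of its copies lie farthest from the RefSeq start, Gaa (chr11:119267713-119268012, forward strand) and Atp6v1a (chr16:44139210-44139509, reverse strand) because they passed the test after bleomycin, and Man2b1 (chr8:85083019-85083318, forward strand) because it passed the same test and held no copy.
Lamp1: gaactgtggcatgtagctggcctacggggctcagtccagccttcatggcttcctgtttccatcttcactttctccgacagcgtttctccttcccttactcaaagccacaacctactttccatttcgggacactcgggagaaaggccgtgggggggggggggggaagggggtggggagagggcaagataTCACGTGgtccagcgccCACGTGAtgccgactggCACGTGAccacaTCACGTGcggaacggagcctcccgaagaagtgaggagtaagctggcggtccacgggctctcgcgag
Gla: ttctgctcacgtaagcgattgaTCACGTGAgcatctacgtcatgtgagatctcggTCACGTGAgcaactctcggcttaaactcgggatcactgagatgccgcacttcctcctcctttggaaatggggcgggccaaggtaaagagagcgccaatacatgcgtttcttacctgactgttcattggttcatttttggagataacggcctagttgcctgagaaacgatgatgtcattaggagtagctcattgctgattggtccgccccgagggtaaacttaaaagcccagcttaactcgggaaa
Gaa: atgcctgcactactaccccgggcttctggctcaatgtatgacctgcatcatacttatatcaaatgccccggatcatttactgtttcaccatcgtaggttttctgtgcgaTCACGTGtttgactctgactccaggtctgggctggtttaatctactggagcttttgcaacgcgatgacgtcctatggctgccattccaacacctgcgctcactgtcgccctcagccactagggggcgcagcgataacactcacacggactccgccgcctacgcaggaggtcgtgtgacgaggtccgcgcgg
Atp6v1a: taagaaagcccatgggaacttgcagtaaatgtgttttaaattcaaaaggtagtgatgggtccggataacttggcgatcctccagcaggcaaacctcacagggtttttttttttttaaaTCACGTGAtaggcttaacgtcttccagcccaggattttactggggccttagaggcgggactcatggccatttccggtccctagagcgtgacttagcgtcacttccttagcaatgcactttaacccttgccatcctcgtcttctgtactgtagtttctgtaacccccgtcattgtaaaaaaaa
Man2b1: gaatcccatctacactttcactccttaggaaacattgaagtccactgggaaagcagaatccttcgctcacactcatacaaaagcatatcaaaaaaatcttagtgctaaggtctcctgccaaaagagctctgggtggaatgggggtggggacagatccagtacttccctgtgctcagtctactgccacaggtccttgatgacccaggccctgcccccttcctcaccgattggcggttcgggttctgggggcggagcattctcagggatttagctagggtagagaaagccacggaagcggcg

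In the Lamp1 window the 4 copies began 62, 45, 28 and 16 bases before the start, so they were packed close to it. Glb1 had 1 copy 49 bases before the start and Arsa 1 copy 17 bases before it. In Mcoln1 the copies lay 72 and 46 bases before the start, and the single copy spanned the start in Atp6v0d1 and began 2 bases after it in Atp6v0e. The copies in Gaa and Atp6v1a began 141 and 132 bases upstream, and those in Gla 228 and 195 bases upstream, which were the most distant ones from the RefSeq start. Some gene starts in the deposited table differ. From them the copies began 65 bases upstream in Gaa, 108 and 75 upstream in Gla and 314 downstream in Atp6v1a. In Mcoln1 the copies began 10 bases upstream and 16 downstream of that start. The copy in Atp6v0d1 began 21 bases upstream of it and did not span it. The order of the copies thus holds for the RefSeq starts only. The 6 members without a window in the promoter table were Asah1, Galns, Atp6v0d2, Atp6v1b2, Atp6v1c1 and Atp6v1h.

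**Figure D1:**
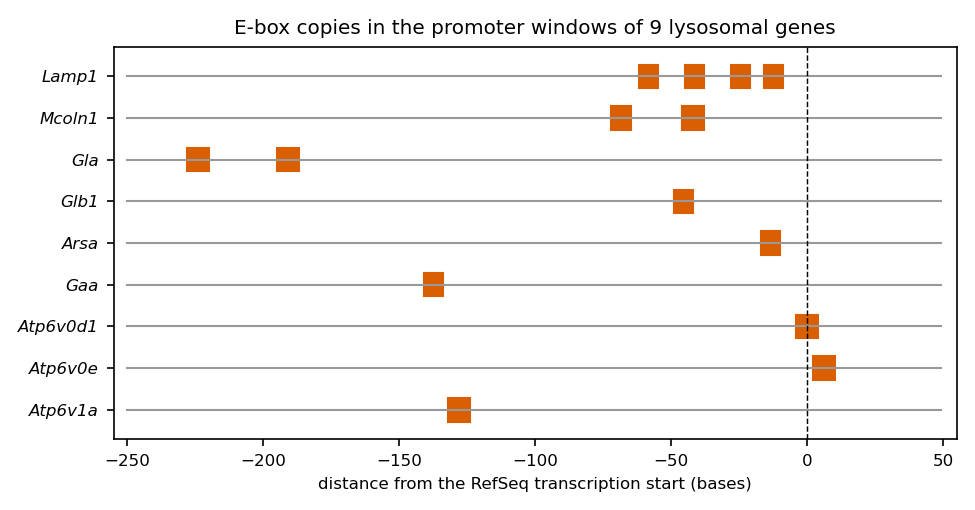
Position of each copy of the motif (orange boxes, to scale) in the promoter windows of the 9 lysosomal genes that held it; the x axis is the distance in bases from RefSeq's annotated transcription start, marked by the dashed line. Lamp1 has 4 copies within 62 bases before the start, whereas the copies of Gla, Gaa and Atp6v1a begin 132 or more bases upstream.

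Over the whole table, the reads recovered from the deposited normalized counts came to 15106420 to 88059617 per library, and the fewest reads behind any member in any library were 205, for Smpd1. The sort was checked by H2-Aa, an MHCII gene, which lay between 16282.6 and 38503.3 normalized counts in MHCII-high libraries. In MHCII-low libraries it had 127.8 and 136.9 in controls, 503.2 to 1810.4 at 2 weeks and 381.4 to 778.3 at 4 weeks. H2-Aa was thus higher after bleomycin within the MHCII-low cells too, though far below the MHCII-high cells. The 15 alveolar macrophage markers were read in every group, with Chil3 highest and none at 0 in all 14 libraries. The share of mitochondrial ribosomal RNA varied within groups. It was 3.42% to 18.32% in 2-week and 3.12% to 23.15% in 4-week MHCII-low libraries. In MHCII-high libraries it was 22.51% to 26.25% at 2 weeks and 8.12% to 28.99% at 4 weeks. The controls had 21.67% and 24.08%. On the second principal component of all tested genes, the 13 other libraries had coordinates of -73.5 to 44.7, and 1 library, 4-week MHCII-high replicate 3, had 146.4. Counts of calls and of non-overlapping members that use that library are given with and without it. In bulk RNA of this kind, fewer cells of a type and less RNA per cell cannot be told apart.

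Most of the lysosomal genes were abundant in these cells. Levels between genes are given as normalized counts per kb of exon, averaged over the 14 libraries. Psap, the precursor of the saposins that present sphingolipids to hydrolases, was highest at 34300 per kb. Atp6v0d2, a V0 subunit known from osteoclasts and macrophages, followed at 29600, and Cd68, a heavily glycosylated protein of macrophage endosomes and lysosomes, at 27100. Lamp1, which lines the lysosomal membrane, had 24000 per kb, Lipa, the acid lipase that frees cholesterol and fatty acids, 23100, and Ppt1, which removes palmitate from proteins, 21700. At the low end were Atp6v1h, a regulatory V1 subunit, with 126 per kb, Tfeb with 146 and Arsa, the sulfatase that degrades sulfatide, with 161. Even Atp6v1h lay above 60.4% of all tested genes on this scale. The order depends on the deposited exon length, which is 9746 bases for Atp6v1h. In normalized counts its mean over the 14 libraries was 1224, above Tfeb (827.8) and Arsa (592.8). The plot of levels by library shows the 35 genes in order of their mean.

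**Figure D2:**
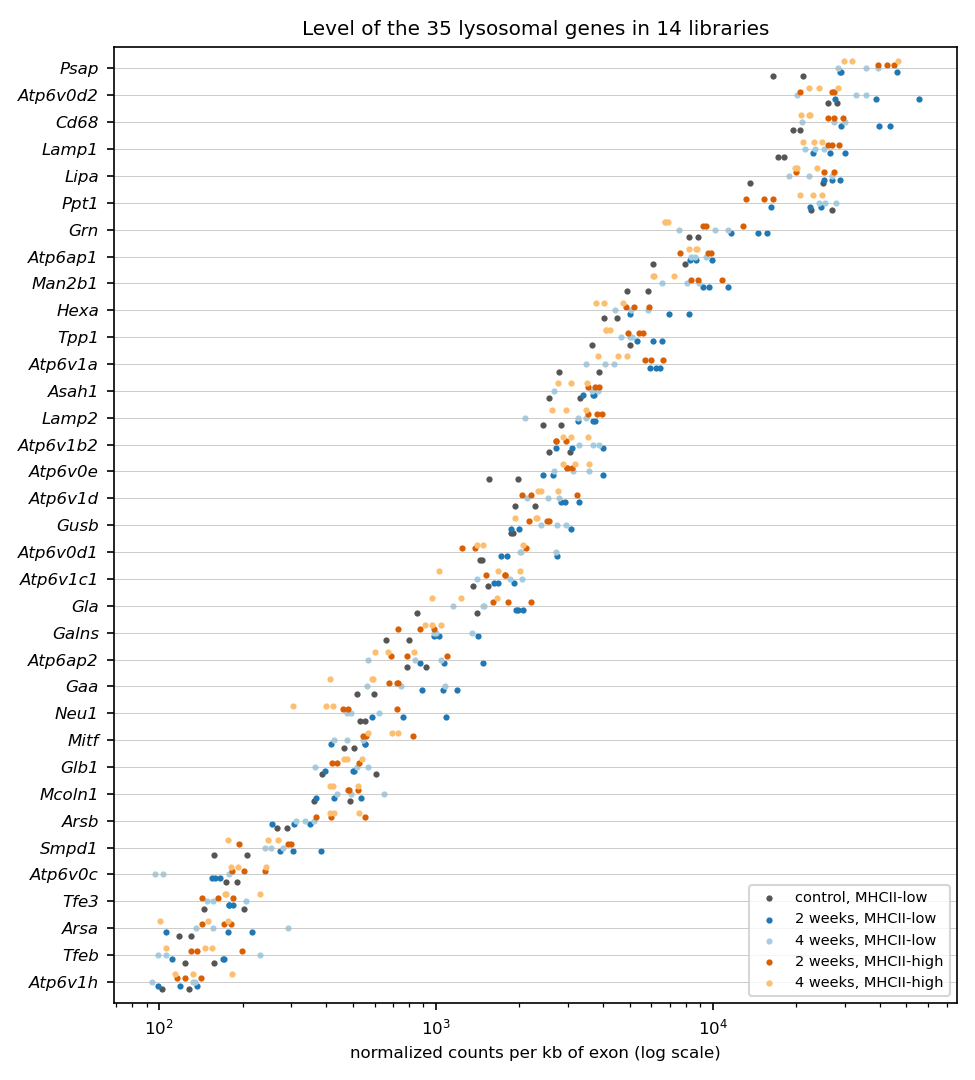
Level of each of the 35 genes in each of the 14 libraries, as normalized counts per kb of exon on a log scale; each point is 1 library, coloured by group, and genes are ordered by their mean. The 6 highest genes, Psap to Ppt1, have means of 21700 per kb or more and the 5 lowest 176 or less.

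The values of the highest genes per library, in normalized counts, were as follows. Psap (chromosome 10, 60277627 to 60302597, forward strand) had 45389 and 57865 in the controls and 78795, 79725 and 127425 in 2-week MHCII-low cells. It had 108563, 77907 and 97979 in 4-week MHCII-low, 123507, 108147 and 116350 in 2-week MHCII-high, and 81651, 87395 and 127524 in 4-week MHCII-high cells. Both controls thus lay below all 12 libraries taken after bleomycin. In MHCII-low cells Psap was 0.86 ± 0.24 (log2 fold change ± standard error) above control at 2 weeks and 0.87 ± 0.24 above at 4 weeks, without passing the threshold (adjusted p 0.069 and 0.33, limma).

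The d subunit of V0, which couples V0 to V1, comes in a widespread form, Atp6v0d1, and in the restricted form Atp6v0d2. Per kb, Atp6v0d2 was 7.4 to 32.4 times as abundant as Atp6v0d1 in the 14 libraries. Atp6v0d2 (chromosome 4, 19876841 to 19922605, reverse strand) had 70556 and 76325 normalized counts in controls, 150435, 105894 and 74945 in 2-week and 54779, 89151 and 96697 in 4-week MHCII-low cells. In MHCII-high cells it had 73374, 56276 and 74092 at 2 weeks and 65754, 77014 and 60296 at 4 weeks. The 3 MHCII-high values at 2 weeks lay below the 3 MHCII-low values (log2 fold change -0.65 ± 0.23, adjusted p 0.15, limma), but by little for the nearest pair. Atp6v0d1 (chromosome 8, 105524465 to 105566047, reverse strand) had 2594 and 2623 in controls, 3068, 3229 and 4897 in 2-week and 4869, 3639 and 3619 in 4-week MHCII-low cells, so both controls lay below these 6 libraries. It had 2482, 2222 and 3786 in 2-week and 2656, 2518 and 3690 in 4-week MHCII-high cells. The ratio of the 2 forms varied within groups: in the 2-week MHCII-low group alone the ratio was 32.4, 21.6 and 10.1.

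Whether bleomycin exposure changed the lysosomal genes was asked first in MHCII-low cells at 2 weeks. Compared with control, 4 of the 35 genes rose and 0 fell past an adjusted p of 0.05. The 4 were Cd68, the lysosomal glycosidases Man2b1 and Gaa, and the V-ATPase subunit Atp6v1a, with 1.84- to 1.89-fold higher levels. Over all 17390 tested genes, 1.48% were called higher and 0.426% lower. Of the 35 members, 32 had a positive fold change, against 44% of all tested genes, and their median log2 fold change was 0.47, against -0.09 for all genes. At an unadjusted p under 0.05 (limma), 18 were higher and 0 lower. The share of all genes past that threshold is not given, here or in the other comparisons. Such counts therefore have no background beside them. In 21 members all 3 bleomycin libraries lay above both controls, which held for 13.7% of all genes. In 1, Atp6v0c, they lay below, which held for 21.6% of all genes. The members are abundant genes. Among the 5919 tested genes with a mean at least that of the lowest member (593), 3.55% were called higher and 59.5% were positive. The median log2 fold change of these genes was 0.08, and in 24.3% all bleomycin libraries lay above both controls. Most members lay well above that lowest mean, so these genes are not matched to the members in level.

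Among the membrane proteins, Cd68 (chromosome 11, 69664213 to 69666153, reverse strand) had 25930 and 24511 normalized counts in controls and 54839, 36528 and 50002 in 2-week MHCII-low cells. In 4-week MHCII-low cells it had 37607, 26450 and 34469, in 2-week MHCII-high cells 34313, 32874 and 37012, and in 4-week MHCII-high cells 26211, 27890 and 28128. The 2-week MHCII-low values were thus all above the controls, and replicate 2 was the lowest of them. Its mean went from 25220 ± 1000 (SD, n = 2) to 47120 ± 9490 (SD, n = 3), a log2 fold change of 0.88 ± 0.19 (limma adjusted p 0.012). Lamp1 (0.58 ± 0.17, adjusted p 0.085) and Lamp2 (0.44 ± 0.20, adjusted p 0.35), the main proteins of the lysosomal membrane, were above both controls in all 3 libraries without passing the test. Mcoln1, a calcium-releasing channel, had a log2 fold change of 0.06, with overlapping libraries.

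Of the 9 genes for the breakdown of lipids and glycolipids, 0 passed limma's test (DESeq2 called Psap, Gla and Hexa), but 8 had positive fold changes (median 0.55) and 7 lay above both controls in every 2-week library. Gla, the α-galactosidase that degrades globosides, came nearest, with 2788 and 4573 normalized counts in controls and 6350, 6449 and 6753 at 2 weeks (0.87 ± 0.23, adjusted p 0.057). The 2-week libraries lay close together and the controls far apart. Smpd1, acid sphingomyelinase, had 0.80 ± 0.29, and Hexa, a subunit of β-hexosaminidase that degrades gangliosides, 0.63 ± 0.20. Lower values were found for Lipa (0.55), the sialidase Neu1 (0.53), Arsa (0.37) and the acid ceramidase Asah1 (0.30). Glb1, β-galactosidase, had -0.06 ± 0.25; it overlaps Tmppe on the same strand, so reads of these 2 genes may be shared. Arsa (chromosome 15, 89472476 to 89477425, reverse strand), among the lowest members, had 479 and 433 in controls, 653, 390 and 796 in 2-week and 1077, 501 and 574 in 4-week MHCII-low cells. In MHCII-high cells Arsa had 632, 524 and 666 at 2 weeks and 654, 370 and 550 at 4 weeks. Both controls lay below the 4-week MHCII-low and the 2-week MHCII-high libraries, and the 2-week MHCII-low libraries overlapped the controls.

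Among the 8 genes for glycans and proteins, Man2b1 and Gaa rose. Man2b1 (chromosome 8, 85083270 to 85098282, forward strand), the lysosomal α-mannosidase that trims N-glycans, had 21196 and 25255 normalized counts in controls and 41804, 39903 and 49069 at 2 weeks. It had 38458, 28323 and 34934 in 4-week MHCII-low, 35942, 38138 and 46507 in 2-week MHCII-high and 26592, 26277 and 31401 in 4-week MHCII-high cells. Both controls lay below every library taken after bleomycin, and the 2-week libraries were higher than the 4-week libraries within MHCII-low cells. The means were 23230 ± 2870 (SD, n = 2) in controls and 43590 ± 4840 (SD, n = 3) at 2 weeks, a log2 fold change of 0.91 ± 0.18 (limma adjusted p 0.0071).

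Gaa (chromosome 11, 119267887 to 119285454, forward strand), the acid α-glucosidase that degrades glycogen in the lysosome, had 2846 and 2475 in controls and 5088, 4242 and 5696 at 2 weeks. It had 5146, 2699 and 3588 in 4-week MHCII-low, 3499, 3235 and 3443 in 2-week MHCII-high and 1986, 2812 and 2832 in 4-week MHCII-high cells. The 2-week MHCII-low cells stood above the controls and above the MHCII-high cells of both times, whereas the 4-week MHCII-low libraries were scattered. The means of controls and 2-week MHCII-low cells were 2661 ± 262 (SD, n = 2) and 5008 ± 730 (SD, n = 3), a log2 fold change of 0.91 ± 0.23 (limma adjusted p 0.045). Of the other genes of this group, Grn, which encodes progranulin, had 0.71 ± 0.20 (adjusted p 0.073) and Galns, a sulfatase of keratan sulfate, 0.64 ± 0.21 (adjusted p 0.16). Tpp1, a tripeptidyl peptidase, had 0.47 and β-glucuronidase, Gusb, 0.26. Arsb, a sulfatase of dermatan and chondroitin sulfate, had 0.13. Ppt1 had the lowest fold change of all members, -0.25 ± 0.19 (limma adjusted p 0.66). It overlaps Cap1 on the opposite strand, which reached 41626.8 normalized counts. The counting is not stated to use strand, so reads from the stretch these 2 genes share may not be told apart, here and in the other comparisons.

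In the V-ATPase, 10 of 11 subunits had positive fold changes at 2 weeks (median 0.39), and 1 rose. This was Atp6v1a (chromosome 16, 44085402 to 44139705, reverse strand), the catalytic A subunit that splits ATP. It had 16802 and 23433 normalized counts in controls, 38936, 37693 and 35677 in 2-week and 21008, 24619 and 26609 in 4-week MHCII-low cells. In MHCII-high cells Atp6v1a had 36176, 34398 and 40074 at 2 weeks and 23254, 27519 and 29661 at 4 weeks. The 6 libraries of 2 weeks, whatever their MHCII level, lay above the 6 libraries of 4 weeks and both controls. The means of controls and 2-week MHCII-low cells were 20120 ± 4690 (SD, n = 2) and 37440 ± 1640 (SD, n = 3), a log2 fold change of 0.91 ± 0.18 (limma adjusted p 0.0056). Next came Atp6v0e, a small V0 subunit (0.75 ± 0.20, adjusted p 0.058), then Atp6v0d2 (0.53 ± 0.26), Atp6v1d, of the central stalk (0.52), and Atp6v0d1 (0.48). Of the 2 accessory proteins, Atp6ap2 had 0.39 and Atp6ap1 0.36. The other V1 subunits had 0.26 (Atp6v1c1), 0.21 (Atp6v1b2) and 0.03 (Atp6v1h). Atp6v0c, which forms the proton-carrying ring, was the subunit with a negative value (-0.19 ± 0.29). Atp6v1h (chromosome 1, 5070018 to 5162529, forward strand) had 1250 and 1001 in controls, 967, 1159 and 1329 in 2-week and 917, 1307 and 1295 in 4-week MHCII-low cells, and 1377, 1134, 1212, 1782, 1290 and 1111 in the 2-week and then the 4-week MHCII-high libraries, all overlapping.

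The RNA of the 3 transcription factors did not pass limma's test in any comparison; DESeq2 called Mitf for MHCII-high against MHCII-low cells over both times. Tfeb (chromosome 17, 47737030 to 47792419, forward strand) had 893 and 700 normalized counts in controls, 973, 629 and 961 in 2-week and 1315, 602 and 559 in 4-week MHCII-low cells, and 776, 1132 and 740 and then 830, 599 and 879 in MHCII-high cells of 2 and 4 weeks. Tfe3 (chromosome X, 7762560 to 7775202, forward strand) had 1348 and 1881 in controls, 1707, 1648 and 1654 in 2-week and 1902, 1450 and 1383 in 4-week MHCII-low cells, and 1321, 1710 and 1511 and then 2133, 1604 and 1619 in MHCII-high cells of 2 and 4 weeks. All groups of both genes overlapped. Mitf (chromosome 6, 97807052 to 98021349, forward strand) had 2880 and 3143 in controls, 2598, 3454 and 3441 in 2-week and 2952, 3381 and 2652 in 4-week MHCII-low cells, and 3384, 5114 and 3472 and then 4325, 3533 and 4536 in MHCII-high cells of 2 and 4 weeks. At 2 weeks against control the log2 fold changes were 0.08 ± 0.34 for Tfeb, 0.07 ± 0.22 for Tfe3 and 0.06 ± 0.21 for Mitf. Of the 9 members with the motif in their promoter window, 8 had a positive fold change in this comparison (median 0.58), and of the 20 members with a window and no motif 18 had one (median 0.45).

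**Figure D3:**
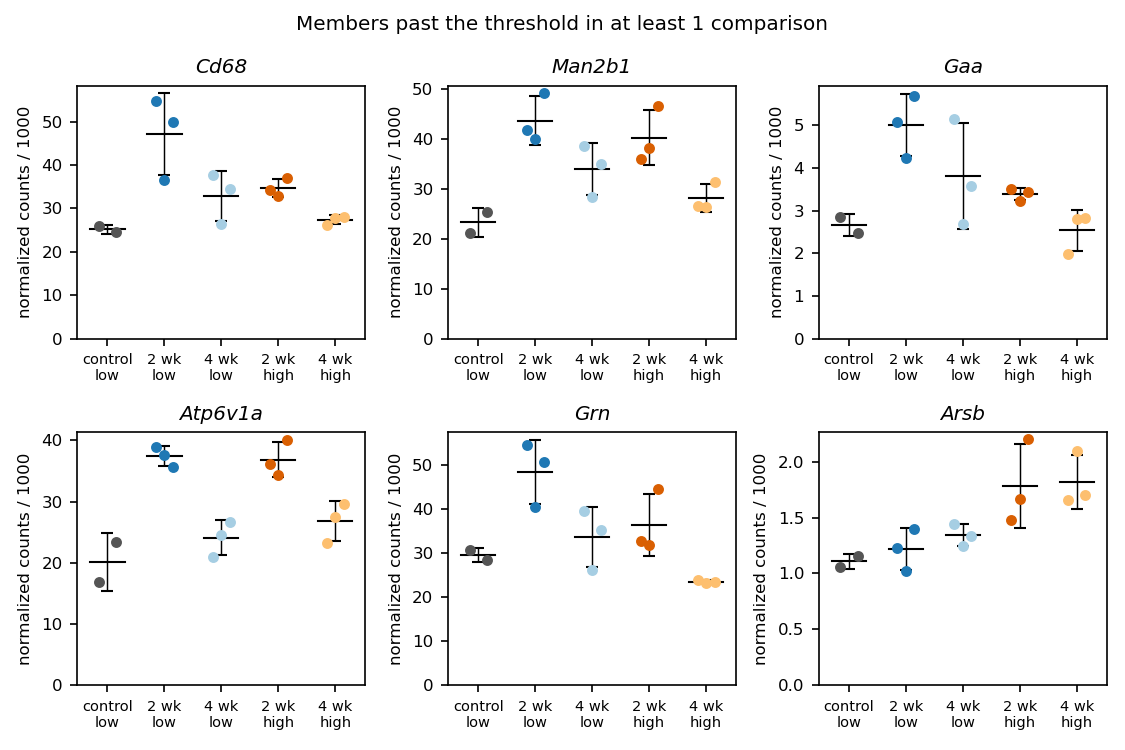
Normalized counts divided by 1000, on an axis from 0, of the 6 genes that passed the test in at least 1 comparison; points are libraries, horizontal lines group means and bars 1 SD (n = 2 controls, n = 3 in the other groups). Cd68, Man2b1, Gaa and Atp6v1a are higher in 2-week MHCII-low cells than in controls, and Arsb is highest in the MHCII-high groups.

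Other measures moved in the same comparison. The share of mitochondrial ribosomal RNA was lower in all 3 of the 2-week MHCII-low libraries (3.42% to 18.32%) than in the controls (21.67% and 24.08%). With this share as a covariate, 2 members were called, Man2b1 (0.83, adjusted p 0.040) and Atp6v1a (1.00, adjusted p 0.0081), and not Cd68 (0.71, adjusted p 0.084) or Gaa (0.81, adjusted p 0.19). Cd68 was also not called when only the groups compared were fitted (adjusted p 0.060), nor Gaa without the filter on low values (0.092). Of the monocyte and interstitial macrophage markers, 8 of 14 were called higher, and their summed level was 16722 to 19296 in controls and 30607 to 36700 at 2 weeks. Of the neutrophil markers, 2 of the 7 tested were called higher (summed level 5130 to 9190 in controls, 14204 to 15577 at 2 weeks). Csf3r, Mmp8 and Cxcr2 each had at least 3460.2 normalized counts in every 2-week library. No other neutrophil marker exceeded 321.6 there (S100a8), with S100a9 at 17.5 to 100.7, Ly6g at 2.2 or less and Elane and Camp at 0. The alveolar macrophage markers also summed higher, from 432311 to 468525 in controls to 569690 to 668791 at 2 weeks, with 1 of 15 called higher and 1 lower. The largest part of that sum was Chil3, with 163233.9 to 199883.5 in controls and 251120.5 to 303546.8 at 2 weeks. The sum thus does not stand for each marker. Of the fibroblast and endothelial markers 1 of 10 was called higher (summed level 2025 to 2567 in controls, 3452 to 5644 at 2 weeks). Of the epithelial markers 2 of 10 were called higher, while their summed level was 13236 to 22714 in controls and 9863 to 16700 at 2 weeks. Csf1r made up most of the monocyte and interstitial macrophage sum, with 12492.1 to 15748.5 in controls and 23086.2 to 24958.5 at 2 weeks. Over the 14 libraries Vwf was the highest fibroblast and endothelial marker and Scgb1a1 the highest epithelial marker. Scgb1a1 had 8982.7 to 18598.9 in controls and 2227.8 to 7925 at 2 weeks. The eosinophil markers Prg2 and Prg3 were at 0 in all 14 libraries. The part of these shifts in the change of the lysosomal genes was not tested.

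With 2 controls, single libraries weighed heavily on these calls. Where 1 control was left out, the other was assumed to vary like the libraries of the other groups. Calls over all genes also changed in number when a library was left out, so this was not particular to the members. No member was called without control replicate 1, 2 were called without 2-week MHCII-low replicate 1 and 7 without its replicate 2. The call of Cd68 was lost without control replicate 1 (adjusted p 0.094), control replicate 3 (0.16) or 2-week MHCII-low replicate 1 (0.061), and that of Gaa without either control (0.20 and 0.47) or without 2-week MHCII-low replicate 1 (0.14) or 3 (0.16). Those of Man2b1 and Atp6v1a were lost only without control replicate 1 (0.18 and 0.23). The count of members with a positive fold change was less dependent, at 28 to 32 of 35 with each library of the comparison left out.

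Other genes of the lysosomal pathway were also mostly above control. Of 105 tested, 10 rose and 0 fell, 87 had positive fold changes and the median was 0.46. By group, 6 of 13 cathepsins and legumain, 2 of 30 other hydrolases, 1 of 27 other membrane proteins, 0 of 10 other V-ATPase genes and 1 of 25 genes of sorting and nutrient sensing rose. The leading genes were Cd63, a tetraspanin of late endosomes (2.66 ± 0.24, adjusted p 4.5e-07), and Ctsk, cathepsin K, a collagen-degrading protease (1.97 ± 0.19, adjusted p 9.6e-07).

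At 4 weeks, MHCII-low cells were compared with the same 2 controls, so the comparisons at 2 and 4 weeks are not independent. No member was called at 4 weeks by limma, and edgeR called 0 and DESeq2 2 (Psap and Atp6v0e). Over all genes, 0.0345% were called higher and 0.0115% lower, so calls were rare in this comparison for any gene. Of the 35 members, 28 had positive fold changes, against 44.6% of all genes and 55% of the 5919 abundant ones. Their median was 0.28 (all genes -0.06, abundant genes 0.03), and 7 were higher and 0 lower at an unadjusted p under 0.05. In 13 members all 4-week libraries lay above both controls (11.4% of all genes, 18.2% of the 5919 abundant ones) and in 0 below (16% of all genes). The largest values were those of Psap, Atp6v0e (0.82 ± 0.20, adjusted p 0.22), Atp6v0d1 (0.62 ± 0.25) and Galns (0.60 ± 0.21), and the lowest was that of Atp6v0c (-0.59). Man2b1 had 0.54, Gaa 0.47, Cd68 0.37 and Atp6v1a 0.27. The monocyte and interstitial macrophage markers summed to 18276 to 22827 and the neutrophil markers to 7344 to 8317 in these libraries, against 16722 to 19296 and 5130 to 9190 in controls. Among the other pathway genes 1 of 105 rose, Cd63 (1.39, adjusted p 0.029).

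**Figure D4:**
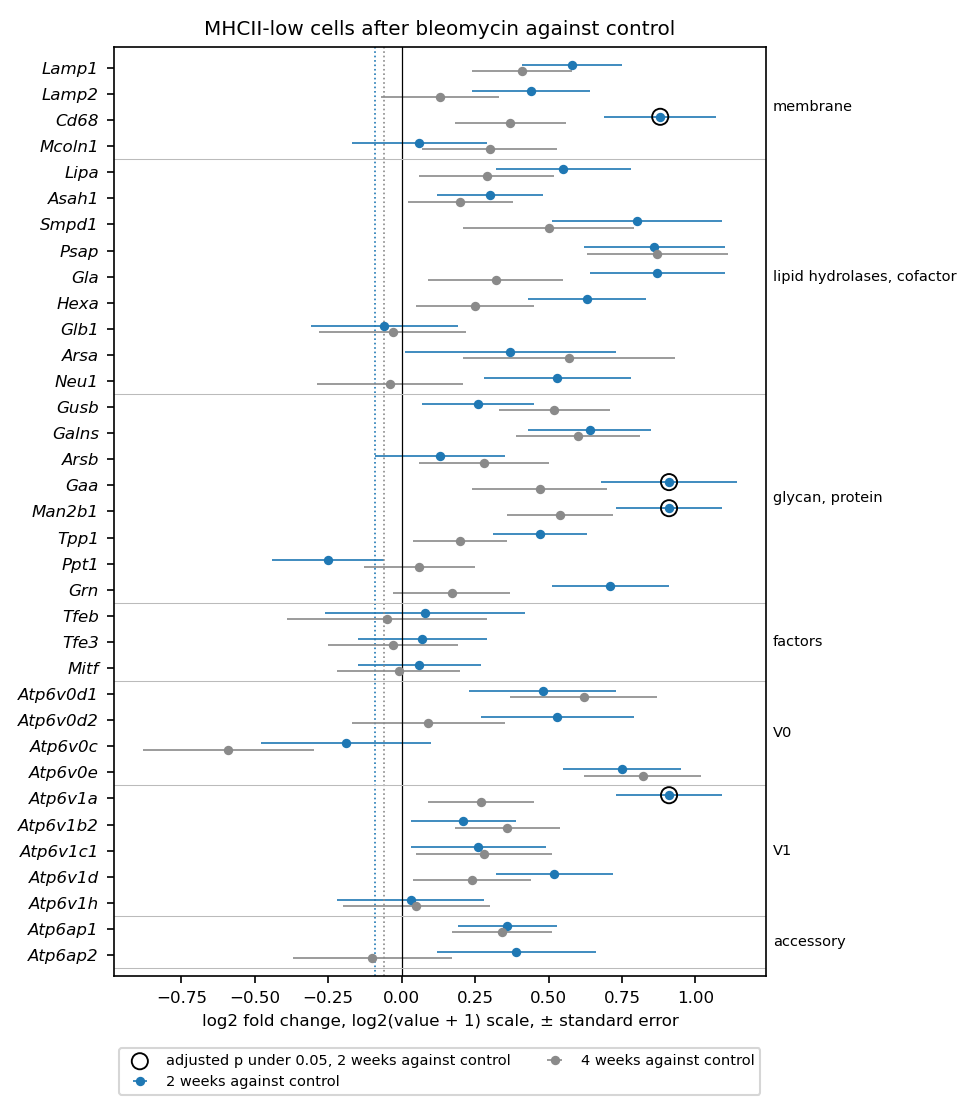
Log2 fold change of each member in MHCII-low cells against control, at 2 weeks (blue) and 4 weeks (grey); bars are standard errors, rings mark an adjusted p under 0.05 (limma), and dotted lines mark the median of all tested genes (-0.09 and -0.06). At 2 weeks 32 of 35 genes lie right of 0; both comparisons use the same 2 controls.

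The times were then compared directly. Within MHCII-low cells no member was called between 4 and 2 weeks (0.109% of all genes higher and 0.748% lower; edgeR 0, DESeq2 1). At an unadjusted p under 0.05, 0 members were higher and 8 lower. Atp6v1a came nearest with -0.64 ± 0.16 (adjusted p 0.06), followed among the others by Neu1 (-0.58), Gla (-0.55) and Grn (-0.54 ± 0.17, adjusted p 0.25). In 6 members, Gla, Man2b1, Tpp1, Grn, Atp6v1a and Atp6v1d, all 4-week libraries lay below all 2-week libraries, against 6.76% of all genes, and in 0 above, against 7.22%. The median of the 35 was -0.14 (all genes 0.03, genes at least as abundant as the lowest member -0.03).

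Within MHCII-high cells no member was called between 4 and 2 weeks either (0.311% of all genes higher, 0.759% lower; edgeR 0, DESeq2 3). At an unadjusted p under 0.05, 1 was higher and 7 lower. In 11 members the 4-week libraries all lay below the 2-week libraries, against 9.06% of all genes, and these were Lamp1, Lamp2, Cd68, Asah1, Hexa, Neu1, Gaa, Man2b1, Tpp1, Grn and Atp6v1a. They include 3 of the 4 membrane proteins and 1 of the 11 V-ATPase subunits. Grn (-0.62 ± 0.17, adjusted p 0.088) and Man2b1 (-0.51 ± 0.16, adjusted p 0.13) came nearest to the threshold. Ppt1 was the 1 member with all 4-week libraries above, 56149, 48518 and 60550 normalized counts at 2 weeks and 91310, 84513 and 75956 at 4 weeks (0.61 ± 0.17, adjusted p 0.09; 5.9% of all genes). Without 4-week MHCII-high replicate 3, the library that stands apart, 0 members were called as well, and 1 lay above and 14 below without overlap (11.8% and 15.3% of all genes). Among the other pathway genes 0 rose and 5 of 105 fell between 2 and 4 weeks in MHCII-high cells, led by Ctsk (-0.98 ± 0.17, adjusted p 0.0063) and Igf2r, the mannose 6-phosphate receptor that carries hydrolases to the lysosome (-2.14 ± 0.39, adjusted p 0.0091). In MHCII-low cells 0 rose and 3 fell, led by Ctsk (-1.38 ± 0.17, adjusted p 5.5e-05) and Ctsl, cathepsin L (-1.56 ± 0.25, adjusted p 0.0016).

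The other question was how MHCII-high and MHCII-low cells differ after bleomycin. Averaged over both times, 1 member, Arsb, was higher in MHCII-high cells and 2, Gaa and Grn, were lower. Over all genes 5% were called higher and 2.21% lower (870 and 384 genes by limma, 824 and 607 by edgeR). Among the 5919 abundant genes 5.37% and 5.2% were called, so the members' counts lay near the background. The median of the 35 was -0.12 (all genes 0.02, the 5919 abundant ones -0.04), with 12 positive and 23 negative. Over all genes 51.4% were positive, and among the abundant ones 44%. At an unadjusted p under 0.05, 3 members were higher and 9 lower. That split depended on the scaling: 6 of the 35 were positive with edgeR and 7 with TMM factors before limma, which both called 0 members higher and 6 and 3 lower, respectively. Members with values near 0, such as Lamp1 (0.01), Tfeb and Tfe3 (0.02 each), changed sign between settings.

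Arsb (chromosome 13, 93771679 to 93943016, forward strand) had 1474, 1666 and 2203 normalized counts in 2-week and 1657, 2096 and 1702 in 4-week MHCII-high cells. In MHCII-low cells it had 1228, 1022 and 1401 at 2 weeks and 1442, 1246 and 1338 at 4 weeks, and in the controls 1058 and 1155. Every MHCII-high library lay above every MHCII-low library, by little for the nearest pair. The log2 fold change was 0.49 ± 0.14 (limma adjusted p 0.039), with 0.54 at 2 and 0.43 at 4 weeks. It was called in 5 of 11 other settings, and not with edgeR (adjusted p 0.079), TMM factors before limma (0.067), the GC trend removed (0.055), no filter (0.056), the replicate block (0.054) or the mitochondrial ribosomal RNA share as a covariate (0.20).

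Gaa, whose values are given above, was lower in MHCII-high cells by the same amount at both times (-0.55 and -0.55; mean of both times -0.55 ± 0.15, limma adjusted p 0.023). At 2 weeks its libraries did not overlap, with a mean of 3392 ± 139 for MHCII-high cells, against 5008 ± 730 for MHCII-low cells (SD, n = 3 each), and at 4 weeks they did. Grn (chromosome 11, 102430315 to 102437048, forward strand), whose product is cleaved into granulins and supports lysosomal function, had 30717 and 28401 in controls, 54510, 40440 and 50693 in 2-week and 39531, 26270 and 35224 in 4-week MHCII-low cells. In MHCII-high cells Grn had 32821, 31931 and 44603 at 2 weeks and 23840, 23236 and 23413 at 4 weeks. The 4-week MHCII-high libraries were close together and below every other library, whereas the 2-week MHCII-high and MHCII-low values overlapped. The log2 fold change of Grn was -0.46 ± 0.12 (limma adjusted p 0.025). Without the filter neither gene was called (adjusted p 0.061 each), and with the GC trend removed Grn was not (-0.33, adjusted p 0.078).

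Just outside the threshold were Neu1 (-0.52 ± 0.16, adjusted p 0.055), Atp6v0c (0.56 ± 0.19, adjusted p 0.072), Mitf (0.39 ± 0.13, adjusted p 0.077) and Cd68 (-0.33 ± 0.12, adjusted p 0.094). Atp6v0d1 and Atp6v0d2 had the same value, -0.43 ± 0.16 (adjusted p 0.10 and 0.12). By role, 14 of the 17 genes grouped as hydrolases and cofactors, Grn included, had negative values (median -0.19), as did 7 of the 11 V-ATPase subunits (median -0.12).

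At single times no member was called. At 2 weeks 2.29% of all genes were called higher and 0.581% lower, and among the members 1 was higher and 6 lower at an unadjusted p under 0.05 (edgeR 0, DESeq2 2). At 4 weeks 1.96% and 0.535% of all genes were called, and 3 members were higher and 3 lower at an unadjusted p under 0.05 (edgeR 0, DESeq2 0). At 2 weeks the libraries did not overlap for 2 members that were higher in MHCII-high cells, Arsb and Atp6v0c, and 2 that were lower, Gaa and Atp6v0d2. These counts compare with 12.9% and 8.26% of all genes. At 4 weeks they did not overlap for Arsb, Mitf and Atp6v0c, which were higher, and for Neu1, Gusb, Tpp1 and Grn, which were lower (8.26% and 8.13% of all genes). Without 4-week MHCII-high replicate 3, the counts were 3 higher and 9 lower (14.5% and 14% of all genes), and 0 members were called. Whether the high-minus-low difference changed between the times was tested as an interaction. It called 0 members and 0% of all genes, and 0 members had an unadjusted p under 0.05 (edgeR 0, DESeq2 0); without 4-week MHCII-high replicate 3 it called 0 members too.

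**Figure D5:**
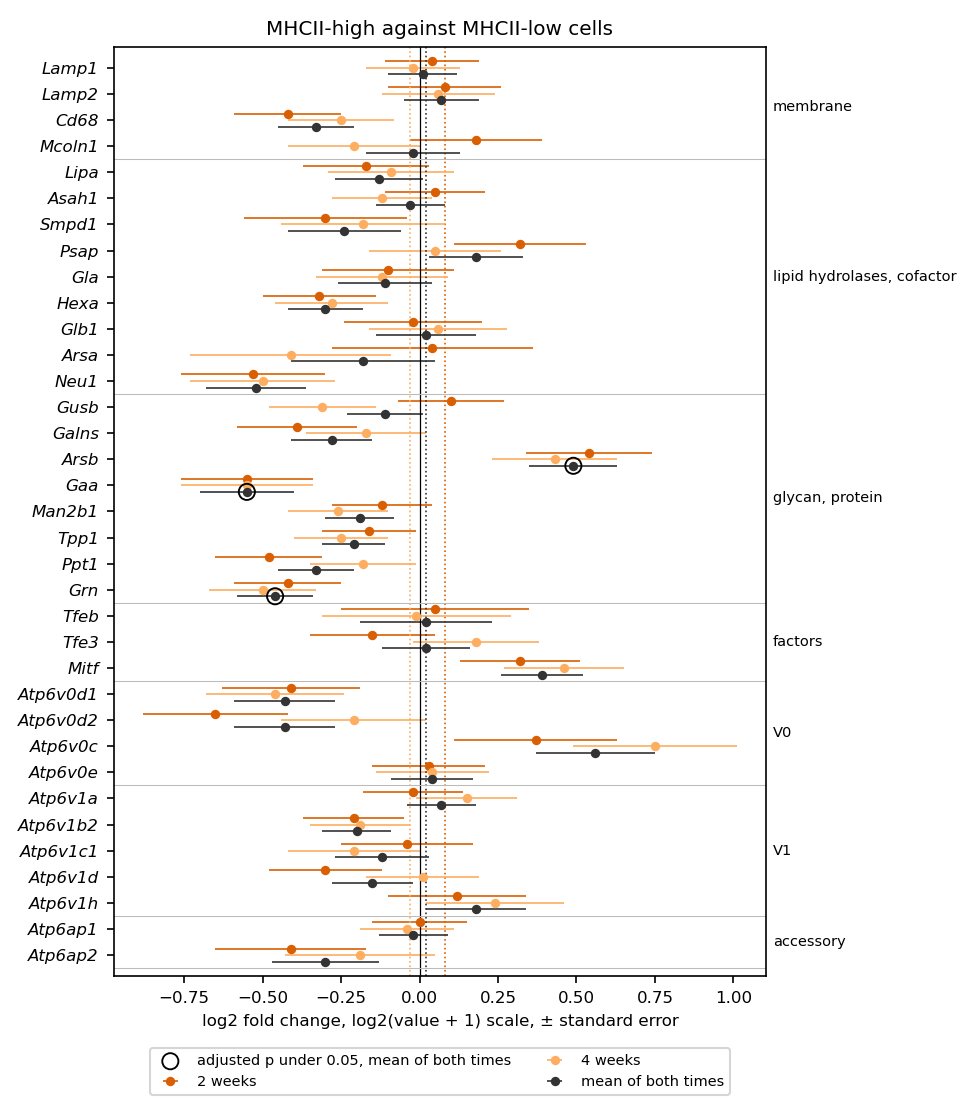
Log2 fold change of each member in MHCII-high against MHCII-low cells at each time (orange shades) and averaged over the times (black); bars are standard errors, rings mark an adjusted p under 0.05 (limma) for the mean, and dotted lines mark the median of all tested genes. Arsb is called higher (0.49) and Gaa (-0.55) and Grn (-0.46) lower; most hydrolases lie left of 0.

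The 2 kinds of cell also differed in cell type markers. At 2 weeks the share of mitochondrial ribosomal RNA was 22.51% to 26.25% in MHCII-high and 3.42% to 18.32% in MHCII-low libraries. At 4 weeks the shares of the 2 kinds overlapped. For the mean of both times, 11 of 15 alveolar macrophage markers were lower in MHCII-high cells (median -0.72). Of the markers of other cells, 9 of 14 of monocytes and interstitial macrophages (median 2.61), 7 of 10 of dendritic cells and 6 of 10 tested of B and T cells were higher, and of the epithelial markers 3 of 10 were higher and 1 was lower. The monocyte and interstitial macrophage markers summed to 69995 to 85101 in 2-week and 39134 to 47861 in 4-week MHCII-high cells, against 30607 to 36700 and 18276 to 22827 for MHCII-low cells at those times. The dendritic cell markers, of which Irf4 was highest, summed to 2226 to 3654 in the MHCII-high libraries, against 249 to 588 in the MHCII-low libraries of the bleomycin groups. With the mitochondrial ribosomal RNA share as a covariate no member was called, and the adjusted p was 0.20 for Arsb, 0.24 for Gaa and 0.36 for Grn. The part of these shifts in the differences of the 3 genes was not tested.

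Single libraries decided these calls as well. Calls over all genes also varied, at 853 to 1399 with a library left out, against 870 higher and 384 lower with all libraries. No member was called without 2-week MHCII-low replicate 1 or 2-week MHCII-high replicate 2, 1 without 4-week MHCII-low replicate 3 and 5 without 2-week MHCII-low replicate 2. Without 4-week MHCII-high replicate 3, the library that stands apart, 4 were called, with Arsb at 0.51, Gaa at -0.60 and Grn at -0.46. The call of Arsb was kept with 5 of the 12 libraries left out in turn (adjusted p up to 0.099), that of Gaa with 7 (up to 0.061) and that of Grn with 7 (up to 0.083).

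Among the other pathway genes, 11 of 105 rose and 11 fell in MHCII-high relative to MHCII-low cells over both times. The higher genes were led by Ctse, cathepsin E (1.72, adjusted p 1.1e-05), and Igf2r (2.21, adjusted p 1.6e-05), and the lower genes by Mcoln3, an endolysosomal channel related to Mcoln1 (-0.92, adjusted p 0.0020), and Pla2g15, a lysosomal phospholipase that degrades surfactant lipids (-0.54, adjusted p 0.0035).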

How the data were processed

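RNA-seq libraries were made with magnetic-bead mRNA isolation, whole-transcriptome amplification and transposase tagging, per the labels' protocols; molecular identifiers are not mentioned there, so PCR copies may be counted as separate molecules. The authors deposited 1 table of normalized counts, a signal per gene and library, in which each library's values are whole multiples of the worth of 1 read (0.39 to 2.237 normalized counts). Dividing by it gave whole reads within the rounding of 0.05 for 99.47% to 100% of the values tested. The submitters' processing notes name STAR, DESeq2 and mm10; their versions and roles, the annotation and the strand setting are not given in the sources at hand. The GC percent and exon length of each gene were used as deposited by the authors. Labels name a pair of sorter models without assigning samples, and no batch, which leaves no within-batch comparison.

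limma 3.58.1 (R 4.3.3) with a mean-variance trend was run on log2(value + 1) of all 14 libraries together, each group having its own coefficient. The 17390 genes that reached 10 normalized counts in 2 or more libraries were tested. Fold changes of low genes are understated on this scale. Benjamini-Hochberg adjustment ran over all genes within each of 8 comparisons (threshold 0.05), and the ± after a fold change is the standard error. Alternatives included edgeR 4.0.16 and DESeq2 1.42.0 on the recovered reads. edgeR's quasi-likelihood test called 306 genes for 2 weeks against control, where limma called 332. Counts of positive fold changes under each setting, counts of non-overlapping members without 4-week MHCII-high replicate 3, and counts over genes at least as abundant as the lowest member, were added after seeing the data. Per-library values and fold changes are given for members called in any comparison, the 3 highest and 3 lowest per kb, the transcription factors and both V-ATPase d subunits; of other pathway genes, at most 2 called genes a direction with the smallest p in a comparison are named, and of marker lists the counts. Members named beyond this were chosen after their values were seen. The members and lists were chosen with earlier results of these data known, so no count over them is independent support. Scripts were tested on simulated data. Figures were drawn with matplotlib 3.10.9.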

Additional observations from a re-analysis of the deposited data

How the results depend on the processing

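Counts of members called were recomputed under 11 settings and with each library left out. For 2 weeks against control (4 called), DESeq2 gave 10, the mitochondrial ribosomal RNA share as a covariate 2 and the replicate block 9; with a library left out the count was 0 to 7. For MHCII-high against MHCII-low over both times (3 called), edgeR gave 6, DESeq2 9, no filter 0 and the covariate 0, and leaving out a library 0 to 5. Where the main count was 0, DESeq2 gave 2 (high against low at 2 weeks), 2 (4 weeks against control), 1 (4 against 2 weeks, MHCII-low) and 3 (MHCII-high). Removing the GC trend gave 1 for high against low at 2 weeks, 1 at 4 weeks and 1 for 4 against 2 weeks in MHCII-low cells. In the last comparison the filter of 50 gave 1 and the replicate block 1, and the covariate gave 1 for 4 against 2 weeks in MHCII-high cells. Leaving out a library gave 0 to 1 for high against low at either time and 0 in the other 4 comparisons. The cause of these differences was not tested. The labels do not say whether MHCII-high and MHCII-low libraries with the same number came from the same mouse, and the main fit treated them as unpaired. Deviations from the group means correlated at -0.06 to 0.11 between same-numbered libraries. With means of 2 or 3 libraries this cannot decide whether they were paired. Called members kept their direction under all of these settings. Members with a positive fold change numbered 29 to 32 at 2 weeks and 28 to 31 at 4 weeks against control, but 6 to 13 for high against low. Among the 4 members called at 2 weeks against the 2 controls, the smallest difference was 0.88 (Cd68), and the members' median of 0.47 lay below it. The smallest difference that could have been called was not computed. Over all genes, DESeq2 moved the counts most: from 332 to 661 for 2 weeks against control, 8 to 74 at 4 weeks, 1254 to 2122 for high against low over both times (499 to 1055 at 2 weeks, 434 to 911 at 4 weeks), 149 to 320 and 186 to 638 between the times in MHCII-low and MHCII-high cells, and 0 to 62 for the interaction. The covariate gave 213 for 2 weeks and 2 for 4 weeks against control, 500 for high against low over both times and 207 at 2 weeks. edgeR gave 2 for 4 weeks against control and 112 between the times in MHCII-high cells. No filter gave 65 and 103 there, and 316 and 282 for high against low at 2 and 4 weeks. Fitting only the groups compared gave 214 for high against low at 4 weeks and 77 between the times in MHCII-high cells; for 4 weeks against control, GC removal gave 5 and the replicate block 16.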
